A study of Mus musculus with 12 samples.

Results

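The 44 genes described here build and run the machinery of chromosome segregation: the kinetochore, the spindle checkpoint, the mitotic spindle and the cytokinesis ring. They were taken by gene symbol from a list of centromere, checkpoint, mitotic kinesin, mitotic kinase and cytokinesis genes, and all 44 are among the 24091 genes measured. RNA sequencing was done on 12 mouse samples in 4 groups of 3. Medulloblastomas came from Brca2-mut;Trp53-mut mice GB344, GB359 and GB370, and normal adjacent cerebellum was taken from the same 3 mice. Control cerebella came from Brca2-mut;Trp53-WT mice GB361, GB508 and GB512 and from Brca2-WT;Trp53-mut mice GB517, GB519 and GB520. Brca2-mut means deletion of floxed exons 3 and 4 by an hGFAP-Cre transgene, active in central nervous system progenitors, so other tissues and the cells Cre misses kept the gene. Trp53-mut is a germline knockout present in every cell. Tumors were taken at a humane endpoint and controls from age-matched adults, all flash frozen. No group carried wild-type alleles of both genes, and against the controls the tumor state and the double genotype cannot be told apart.

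At mitosis, CENP-A nucleosomes mark the centromere, and a constitutive network of CENP proteins links them to the outer kinetochore, where the NDC80 complex grips microtubules. Unattached kinetochores recruit checkpoint proteins that block CDC20, the activator of the anaphase promoting complex, until every chromosome is attached. Kinesins, Aurora and Polo kinases and bundling proteins then shape the spindle, and centralspindlin, ECT2 and anillin set up the furrow that splits the cell. In the cerebellum, granule cell progenitors divide heavily after birth under Sonic hedgehog and are the origin of one class of medulloblastoma, whereas mature granule neurons have left the cycle.

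Levels are in TPM, a share of all transcripts in a library corrected for transcript length, so genes can be compared within a sample. Depth is unknown from such values, so the errors below come from the spread between separate mice. The p-values test mean differences against that spread alone. Each sample had between 15088 and 15803 genes at 1 TPM or more. The markers followed the tissue labels: 5 of 6 granule cell progenitor markers were called higher in tumors than in controls, and all 6 mature granule neuron markers were called lower. Their summed level was 704 to 1575 TPM in tumors, 206 to 514 in adjacent cerebellum and 119 to 172 in controls for the progenitor list, and 110 to 390, 2168 to 2996 and 2884 to 3604 for the mature list. Among the other lists, tumors were called lower in 5 of 5 Purkinje cell, 5 of 5 oligodendrocyte, 4 of 5 astrocyte and Bergmann glia, 2 of 5 endothelial, 1 of 4 choroid plexus and 2 of 2 erythrocyte markers, higher in 2 of 3 oligodendrocyte precursor markers and in neither direction in 5 microglial markers. Choroid plexus markers summed to 17.01 to 862 TPM in Brca2-mut;Trp53-WT and 3902 to 5108 TPM in Brca2-WT;Trp53-mut cerebella, with 0 of the 4 markers called between these genotypes. Samples also stood apart within groups. Tumor GB344 had 704 TPM of progenitor markers, against 1486 in GB359 and 1575 in GB370, and 110 TPM of mature granule neuron markers, against 390 and 290.1. Control GB361 had 862 TPM of choroid plexus markers, against 17.01 in GB508 and 20.7 in GB512. Adjacent cerebellum of mouse GB370 had 206 TPM of progenitor markers, against 495 in mouse GB344 and 514 in mouse GB359, and control mouse GB512 had more mitotic transcripts than the other controls.

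The sums bring out these differences. Summed over the 44 genes, tumors held 2625, 2757 and 2693 TPM in mice GB344, GB359 and GB370. Adjacent cerebellum held 1261, 845 and 338 TPM in the same order. The Brca2-mut;Trp53-WT cerebella held 225, 242 and 409 TPM in mice GB361, GB508 and GB512, and the Brca2-WT;Trp53-mut cerebella 266, 315 and 316. The 3 tumors lay close together and above every other sample, whereas the adjacent samples spread down to a value below that of control mouse GB512. In bulk tissue, fewer dividing cells and less RNA per cell cannot be told apart.

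**Figure D1:**
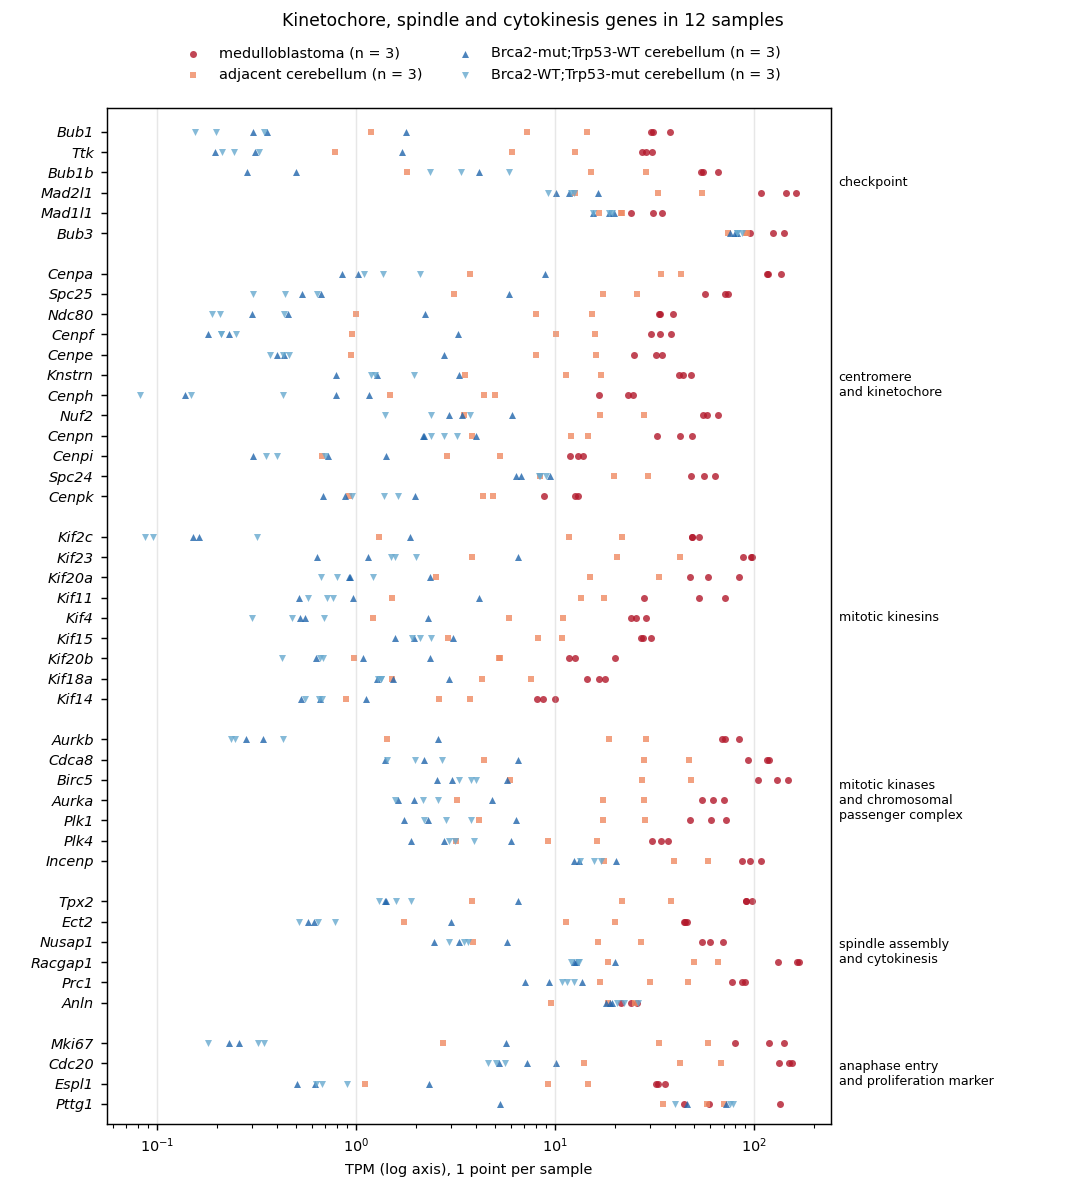
TPM of each of the 44 genes (rows, grouped by role) on a log axis, with 1 point for each of the 12 samples, colored by group. Tumors lie to the right of every other sample for 42 genes, the exceptions being Anln and Pttg1, and adjacent samples are scattered between controls and tumors.

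The first comparison set the 3 tumors against the 6 control cerebella. Of the 44 genes, 40 rose in tumors and 0 fell, and the remaining 4 were Bub3, Mad1l1, Anln and Pttg1. A gene was called when limma gave a Benjamini-Hochberg adjusted p under 0.01 and a change of at least 1 on the log2(TPM + 1) scale. Over all 16241 genes tested, 14.4% were called higher and 21.5% lower. At an unadjusted p under 0.05, 42 of the 44 were higher and 0 lower, while 11935 of all 16241 genes passed in either direction. As a group the 44 had a median log2 fold change of 4.08, with quartiles of 3.02 and 4.58, beside a median of -0.11 over all genes. In 42 genes every tumor exceeded every control, a pattern seen in 28.3% of all genes tested.

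All 44 genes passed the filter of at least 1 TPM in at least 3 samples, but 18 of them reached it only through the tumors, so a difference was built into their passing. The other 26 had at least 1 TPM in at least 3 controls. Of these 26, 22 were called higher, with a median log2 fold change of 3.45. The 40 calls also held with each of the 9 samples left out in turn.

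**Figure D2:**
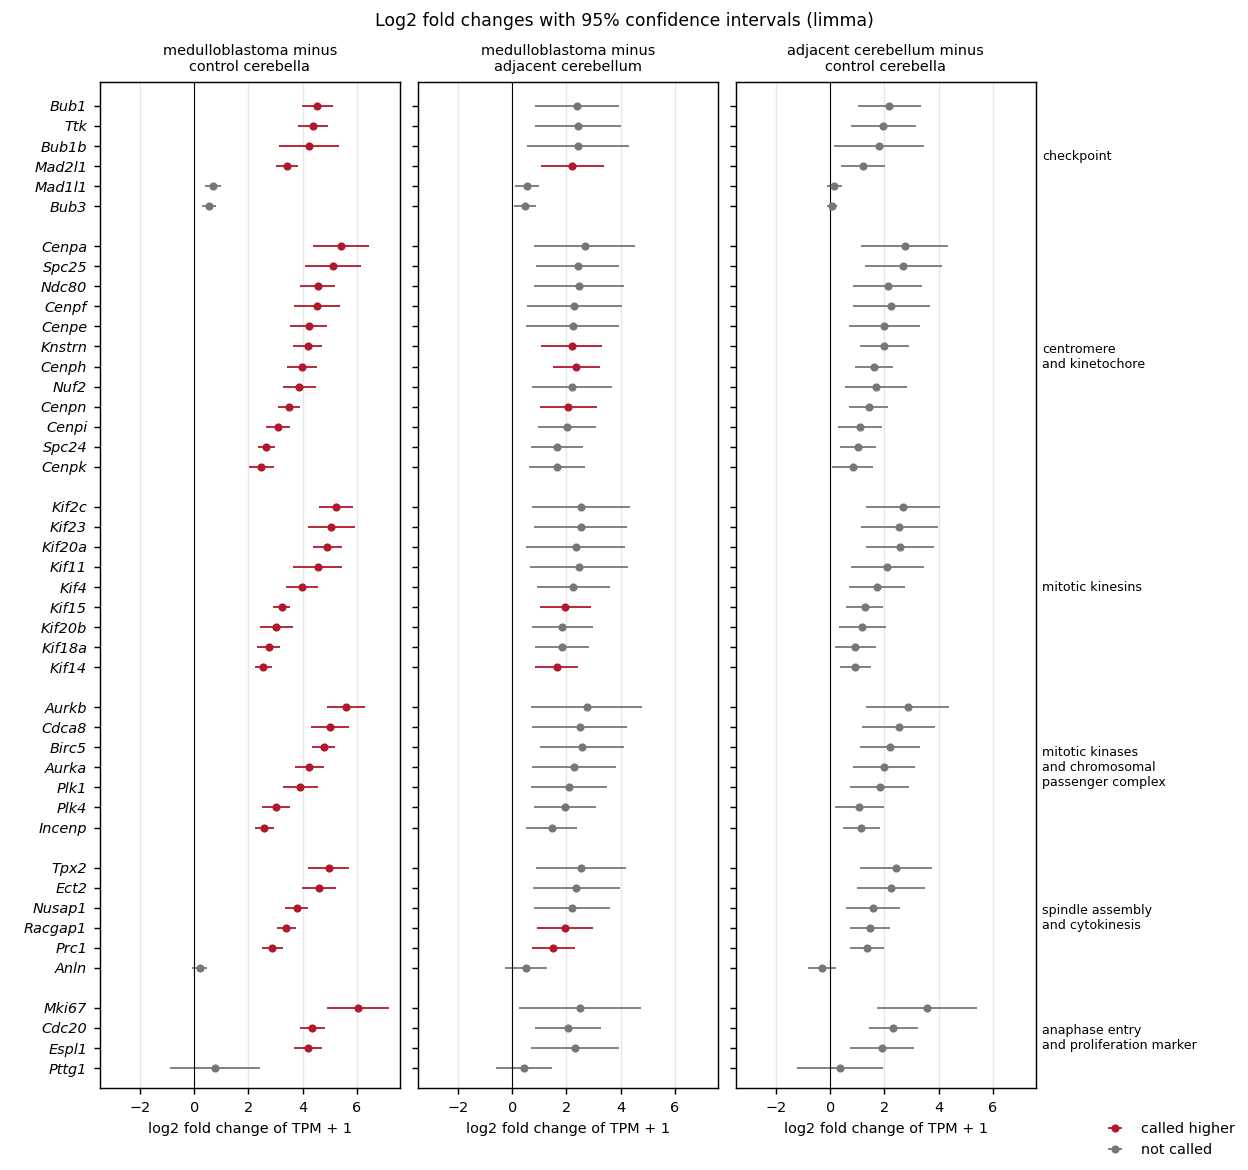
Log2 fold changes of TPM + 1 for the 44 genes (rows, grouped by role) in 3 comparisons, with 95% confidence intervals from limma; red points are called and grey points are not. Nearly all intervals are narrow in tumors against controls (40 called), wide in tumors against adjacent cerebellum (8 called) and wide again in adjacent cerebellum against controls (0 called).

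Many mitotic genes share promoter elements known to bind cell cycle regulators: the cell cycle genes homology region (CHR), bound by the MuvB core with DREAM subunits, B-MYB or FOXM1, and CCAAT boxes, bound by NF-Y. Exact TTTGAA (CHR) and CCAAT were searched on both strands from 250 bases before to 50 after each RefSeq start site in build GRCm38.p6. Promoters were at hand for 39 of the 44 genes, all but Aurkb, Incenp, Kif20a, Spc24 and Tpx2. CHR was present in 25 of the 39 (64.1%), against 20.2% of 27025 genes with a promoter. CCAAT was present in 25 of the 39 (64.1%), against 41.1% of all genes. Both were present in 20 of the 39 (51.3%), against 7.97% of all genes. A single CHR match overlapped a CCAAT match. With the 50 bases after the start left out, CHR was found in only 11 genes (28.2%, against 18.3% of all), since most of the matches lay close to the start (median offset of 2 bases from it). Neither motif was found for Birc5, Kif18a, Knstrn, Mad1l1, Mad2l1, Nuf2, Nusap1, Plk4 and Pttg1, of which 7 were called higher in tumors. The only windows at hand for Kif2c, Kif14, Pttg1, Aurka and Ect2 lay inside the gene, not at its outermost annotated start.

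The promoters of the 3 genes with the largest rises among those with both motifs are shown, with those of Birc5, which has the largest rise among genes with neither motif, and of Bub3, which has both motifs and was not called. Each run goes 5′ to 3′ on the strand of the gene, from 200 bases before the start to 30 bases from it, in GRCm38.p6. Capitals mark CHR (TTTGAA or its complement TTCAAA) and CCAAT (or its complement ATTGG). Mki67 is at chr7:135716350-135716579 on the minus strand, Cenpa at chr5:30666686-30666915 on the plus strand, Spc25 at chr2:69206184-69206413 on the minus strand, Birc5 at chr11:117849037-117849266 on the plus strand and Bub3 at chr7:131560170-131560399 on the plus strand.
Mki67: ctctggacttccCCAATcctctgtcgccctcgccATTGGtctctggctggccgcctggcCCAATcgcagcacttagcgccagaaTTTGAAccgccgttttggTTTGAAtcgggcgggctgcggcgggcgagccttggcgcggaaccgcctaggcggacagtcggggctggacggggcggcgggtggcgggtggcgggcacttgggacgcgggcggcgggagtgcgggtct
Cenpa: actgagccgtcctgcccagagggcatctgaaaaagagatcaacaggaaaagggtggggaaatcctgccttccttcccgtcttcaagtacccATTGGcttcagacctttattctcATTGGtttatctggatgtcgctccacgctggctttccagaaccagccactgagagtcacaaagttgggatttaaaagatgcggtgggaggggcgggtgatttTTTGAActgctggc
Spc25: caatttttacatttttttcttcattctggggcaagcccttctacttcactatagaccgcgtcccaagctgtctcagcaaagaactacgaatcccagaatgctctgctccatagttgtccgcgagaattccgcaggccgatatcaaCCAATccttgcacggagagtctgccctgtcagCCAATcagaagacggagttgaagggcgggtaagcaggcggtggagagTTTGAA
Birc5: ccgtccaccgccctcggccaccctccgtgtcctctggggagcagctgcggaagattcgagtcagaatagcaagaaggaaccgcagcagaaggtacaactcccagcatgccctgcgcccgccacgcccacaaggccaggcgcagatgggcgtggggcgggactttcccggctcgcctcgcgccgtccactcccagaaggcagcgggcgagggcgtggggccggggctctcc
Bub3: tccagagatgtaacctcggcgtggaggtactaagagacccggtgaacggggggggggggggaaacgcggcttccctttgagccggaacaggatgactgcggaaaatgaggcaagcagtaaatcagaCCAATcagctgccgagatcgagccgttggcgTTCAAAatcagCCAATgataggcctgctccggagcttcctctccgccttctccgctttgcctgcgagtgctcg

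Among the 6 checkpoint genes, 4 rose in tumors (Bub1, Bub1b, Mad2l1 and Ttk) and 2 were not called (Bub3 and Mad1l1). Bub1, a kinase that marks centromeric chromatin and recruits other checkpoint proteins, had 37.8, 30.9 and 30.2 TPM in tumors of mice GB344, GB359 and GB370. Its control values ran from 0.155 to 1.79 TPM with a median of 0.323, so the groups were far apart (log2 fold change 4.55 ± 0.26 SE, limma adjusted p = 1.26e-07). Ttk encodes MPS1, the kinase that starts the checkpoint signal. It had 30.6, 27.2 and 28.5 TPM in tumors and 0.196 to 1.70 in controls (log2 fold change 4.38 ± 0.25 SE, adjusted p = 1.18e-07). Bub1b encodes BUBR1, which holds CDC20 inactive together with MAD2, and had 65.5, 53.7 and 55.4 TPM in tumors. Its controls overlapped between genotypes, at 0.285, 0.502 and 4.14 TPM in Brca2-mut;Trp53-WT mice and 5.84, 2.34 and 3.36 in Brca2-WT;Trp53-mut mice, and the tumors still lay above all of them (log2 fold change 4.22 ± 0.50 SE, adjusted p = 2.55e-05). Mad2l1, which encodes MAD2, had 108, 145 and 161 TPM in tumors and 9.22 to 16.4 in controls, a log2 fold change of 3.43 ± 0.17 SE (adjusted p = 6.1e-08).

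The 2 checkpoint genes that were not called already had high control levels. Bub3, the adaptor that carries BUB1 and BUBR1 to kinetochores, had the highest control level of the 44 genes at 81.3 ± 3.83 TPM (SD, n = 6). In tumors it had 141, 124 and 94.7 TPM, above every control, but the log2 fold change was only 0.54 ± 0.11 SE (limma adjusted p = 0.00145). Mad1l1, which encodes the docking partner of MAD2 at the kinetochore, had 34.2, 23.9 and 31.1 TPM in tumors and 15.4 to 19.6 in controls, again without overlap (log2 fold change 0.70 ± 0.13 SE, adjusted p = 0.000741). Both passed the p threshold and missed the fold threshold. The Bub3 promoter printed above carries 1 CHR and 2 CCAAT matches, and those of Mad1l1 carry neither.

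All 12 centromere and kinetochore genes rose in tumors, with log2 fold changes from 2.48 (Cenpk) to 5.43 (Cenpa). Cenpa, the histone H3 variant that defines the centromere, had 117, 116 and 137 TPM in tumors. Control values were 0.850, 1.03, 1.09, 1.36 and 2.10 TPM in 5 mice and 8.86 in mouse GB512. The groups did not overlap (log2 fold change 5.43 ± 0.46 SE, limma adjusted p = 2.11e-06).

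The 4 subunits of the NDC80 complex, which bind each other as a single rod, lay within 35.3 to 67.2 TPM in tumors. In controls they lay further apart as a ratio, though not in TPM. In tumors Ndc80 averaged 35.3 ± 3.16, Nuf2 59.6 ± 5.60, Spc24 55.9 ± 7.61 and Spc25 67.2 ± 9.19 TPM (SD, n = 3). In controls the order was otherwise, with Spc24 at 8.04 ± 1.23, Nuf2 at 3.32 ± 1.57, Spc25 at 1.41 ± 2.19 and Ndc80 at 0.633 ± 0.782 TPM (SD, n = 6). The log2 fold changes therefore spread, from 2.66 ± 0.14 SE for Spc24 through 3.89 ± 0.28 for Nuf2 and 4.57 ± 0.29 for Ndc80 to 5.12 ± 0.46 for Spc25. Spc25 had 56.6, 73.5 and 71.4 TPM in tumors, against 0.303 to 0.669 in 5 controls and 5.87 in mouse GB512.

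The inner kinetochore genes Cenph, Cenpi, Cenpk and Cenpn, all of the constitutive CENP network, were mostly less abundant. Cenph averaged 21.4 ± 4.33, Cenpi 12.9 ± 0.991 and Cenpk 11.5 ± 2.31 TPM in tumors (SD, n = 3), and Cenpn stood higher at 41.3 ± 8.19. Their log2 fold changes were 3.97, 3.10, 2.48 and 3.48. Cenpe, a kinesin that brings chromosomes to the spindle equator, had 34.3, 32.1 and 24.9 TPM in tumors (log2 fold change 4.22 ± 0.31 SE). Cenpf, a large coiled-coil protein of the outer kinetochore, had 33.6, 38.3 and 30.3 (4.54 ± 0.38 SE). Knstrn, which encodes the spindle protein kinastrin, had 42.05, 44.04 and 48.2 (4.18 ± 0.24 SE). The adjusted p of these 7 genes was 1.94e-06 or lower, and tumors and controls did not overlap in any of them.

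All 9 mitotic kinesins rose in tumors, with log2 fold changes from 2.55 (Kif14) to 5.24 (Kif2c). Kif2c encodes MCAK, which takes microtubules apart at kinetochores, and had 52.9, 48.4 and 48.8 TPM in tumors. In controls it was at 0.0869 to 0.317 TPM in 5 mice and 1.87 in mouse GB512, the lowest control mean of the 44 genes (log2 fold change 5.24 ± 0.29 SE, limma adjusted p = 9.82e-08). Kif23 encodes the motor of centralspindlin and had 87.6, 96.4 and 96.8 TPM in tumors against 0.638 to 6.52 in controls (5.06 ± 0.39 SE, adjusted p = 9.02e-07). Kif20a, which carries the chromosomal passenger complex to the midzone, varied more, with 83.8, 47.6 and 58.7 TPM in tumors and 0.669 to 2.35 in controls (4.91 ± 0.24 SE, adjusted p = 5.03e-08). Kif11, the motor that pushes the spindle poles apart, was the most uneven called gene of the set across tumors, at 28.0, 71.4 and 52.9 TPM (coefficient of variation 42.8%). Its controls ran from 0.516 to 4.16 TPM, so it was called all the same (4.56 ± 0.41 SE, adjusted p = 2.89e-06). Kif15, which can stand in for Kif11, was even across tumors at 27.02, 30.2 and 27.5 TPM (3.22 ± 0.15 SE, adjusted p = 3.66e-08).

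The remaining kinesins lay between these. Kif4, a motor on chromosome arms, averaged 26.1 ± 2.30 TPM in tumors (SD, n = 3), and Kif18a, which damps chromosome movement at the equator, 16.2 ± 1.72. The cytokinesis motors Kif20b and Kif14 were the least abundant of the kinesins, at 14.7 ± 4.54 and 8.89 ± 0.922 TPM. Log2 fold changes were 3.98 for Kif4, 2.75 for Kif18a, 3.02 for Kif20b and 2.55 for Kif14, all with an adjusted p of 3.24e-06 or lower.

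All 7 genes of the mitotic kinases and the chromosomal passenger complex rose in tumors. The complex joins the kinase Aurora B to survivin, borealin and the scaffold INCENP and corrects faulty attachments. Aurkb, the Aurora B gene, had 68.6, 71.5 and 83.95 TPM in tumors and 0.236 to 0.429 in 5 controls, with 2.59 in mouse GB512 (log2 fold change 5.61 ± 0.32 SE, limma adjusted p = 1.16e-07). Cdca8 (borealin) had 116, 92.9 and 119 TPM in tumors and 1.40 to 6.46 in controls (5.01 ± 0.32 SE, adjusted p = 2.51e-07). Birc5 (survivin) had 130, 105 and 147 TPM in tumors and 2.56 to 5.73 in controls, and its adjusted p of 2.26e-08 was the lowest of the 44 genes (4.78 ± 0.19 SE). Incenp had 108, 94.8 and 86.2 TPM in tumors, close to its partners, but 12.5 to 20.2 in controls, so its log2 fold change was 2.59 ± 0.15 SE (adjusted p = 1.32e-07). Within this complex the scaffold thus had the highest control level and the smallest rise.

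The other kinases followed the same direction. Plk1, which acts from mitotic entry to cytokinesis, had 71.7, 60.4 and 47.4 TPM in tumors and 1.75 to 6.33 in controls (log2 fold change 3.92 ± 0.29 SE, limma adjusted p = 6.31e-07). Aurka, the spindle pole kinase, had 54.3, 61.8 and 69.96 TPM against 1.57 to 4.81 (4.25 ± 0.24 SE, adjusted p = 1.18e-07). Plk4, which starts centriole duplication, had 36.7, 33.8 and 30.6 TPM against 1.88 to 5.997 (3.02 ± 0.24 SE, adjusted p = 1.06e-06). Tumors and controls did not overlap for any of the 3.

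Of 6 spindle assembly and cytokinesis genes, 5 rose in tumors and Anln did not. Tpx2, the activator of Aurora A, had 90.8, 90.9 and 96.998 TPM in tumors and 1.30 to 6.50 in controls (log2 fold change 4.96 ± 0.34 SE, limma adjusted p = 4.02e-07). Ect2, which switches on RhoA at the furrow, was the most even gene across tumors at 44.9, 45.8 and 44.1 TPM, with 0.517 to 2.995 in controls (4.60 ± 0.28 SE, adjusted p = 1.99e-07). Racgap1, the other centralspindlin subunit, had the highest tumor mean of the 44 genes, with 132, 167 and 164 TPM, and stood at 11.9 to 19.99 in controls (3.4 ± 0.16 SE, adjusted p = 3.66e-08). Prc1, which bundles midzone microtubules, had 77.3, 89.5 and 86.1 TPM against 7.07 to 13.6 (2.88 ± 0.17 SE, adjusted p = 1.62e-07). Nusap1, a spindle microtubule binder, had 54.4, 59.5 and 69.3 TPM against 2.46 to 5.72 (3.78 ± 0.19 SE, adjusted p = 5.97e-08).

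Anln encodes anillin, a scaffold of the contractile ring that myelinating oligodendrocytes also express. It had 24.1, 25.7 and 21.5 TPM in tumors and 18.0 to 26.1 in controls, and the groups overlapped (log2 fold change 0.19 ± 0.12 SE, 95% interval -0.09 to 0.46, limma adjusted p = 0.195). In adjacent cerebellum it had 18.3, 25.04 and 9.56 TPM in mice GB344, GB359 and GB370. The 5 oligodendrocyte markers, all called lower in tumors, summed to 74.9, 277 and 175 TPM in tumors, 1528, 4353 and 1884 in the adjacent samples and 3151 to 4923 in controls. Their part in the Anln values was not tested.

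Of the last 4 genes, Cdc20, Espl1 and Mki67 rose in tumors and Pttg1 did not. Cdc20, the target of the checkpoint, had 150, 133 and 154 TPM in tumors and 4.60 to 10.1 in controls (log2 fold change 4.37 ± 0.20 SE, limma adjusted p = 3.66e-08). Espl1, which encodes separase, the protease that cuts cohesin, had 32.9, 35.4 and 32.1 TPM against 0.506 to 2.32 (4.21 ± 0.23 SE, adjusted p = 1.01e-07). Mki67, whose protein Ki-67 coats mitotic chromosomes and marks cycling cells, had 119, 140 and 79.6 TPM in tumors. In controls it had 0.257, 0.231 and 5.63 TPM in Brca2-mut;Trp53-WT mice GB361, GB508 and GB512 and 0.180, 0.320 and 0.343 in the Brca2-WT;Trp53-mut mice. Its log2 fold change of 6.06 ± 0.51 SE was the largest of the 44 genes and ranked 15 of 16241 (adjusted p = 2.02e-06).

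Pttg1 encodes securin, which holds separase inactive until anaphase. It had 58.9, 135 and 44.3 TPM in tumors, 57.6, 34.6 and 70.5 in adjacent cerebellum, 5.28, 45.9 and 72.1 in Brca2-mut;Trp53-WT controls and 40.1, 77.8 and 75.4 in Brca2-WT;Trp53-mut controls. The range within each group was wide, and the tumors overlapped both controls and adjacent samples. Its log2 fold change against controls was 0.78 ± 0.75 SE (95% interval -0.89 to 2.44, limma adjusted p = 0.369), so a rise as large as 2.44 lies inside the interval. Securin and separase transcripts thus differed in pattern: Espl1 was low in all controls, and Pttg1 was high in 5 of 6.

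Other genes of the same machinery were counted from lists. Of 31 further centromere and kinetochore genes, 25 were called higher and 1 lower in tumors, with a median log2 fold change of 2.73. The largest rises were those of Sgol1, a shugoshin that protects centromeric cohesin (28.2 ± 4.50 TPM in tumors, 0.542 ± 0.338 in controls, log2 fold change 4.26), and Kntc1 (ROD), which brings checkpoint proteins and dynein to kinetochores (4.17). Zwint, a partner of that module, was the gene called lower, with 202 ± 34.6 TPM in tumors and 535 ± 8.25 in controls (log2 fold change -1.41, limma adjusted p = 3.22e-07). Of 30 further spindle, centriole and cytokinesis genes, 21 were called higher and 0 lower (median 1.59), with Kif18b (5.04) and Ckap2 (4.95) the largest. Among the 9 not called was Cit, the citron kinase of the midbody, with 21.1 ± 1.65 TPM in tumors and 42.6 ± 3.31 in controls (log2 fold change -0.98 ± 0.09 SE, limma adjusted p = 4.44e-06, short of the fold threshold).

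The anaphase promoting complex, on which CDC20 acts, changed less. Of its 18 listed genes, 6 were called higher and 0 lower, with a median log2 fold change of 0.59. The largest rises were in Ube2c, its ubiquitin-conjugating enzyme (283 ± 34.0 TPM in tumors, 12.4 ± 7.12 in controls, log2 fold change 4.52), and Fbxo5, its inhibitor EMI1 (3.72). Of the 16 MuvB, DREAM, FOXM1 and NF-Y genes, 7 were called higher and 0 lower (median 0.70). Foxm1, a transcription factor of the G2 and M phases, had 72.2 ± 18.3 TPM in tumors and 1.26 ± 1.55 in controls (log2 fold change 5.18, limma adjusted p = 7.82e-07). Mybl2, which encodes B-MYB, had 36.6 ± 7.74 and 0.775 ± 0.533 TPM (4.43, adjusted p = 6.78e-08). The smaller changes in the rest of that list included Lin37 (-0.23) and Nfyc (-0.06), which were not called.

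The second comparison set the tumors against the adjacent cerebellum of the same mice, in a main fit that did not pair samples by mouse. This comparison shares its tumors with the first, so the values are given side by side. All 44 genes had a positive log2 fold change, and in 42 of them every tumor exceeded every adjacent sample, against 23.7% of all 15845 genes tested. Only 8 were called higher and 0 lower, beside 4.76% and 18% of all genes. The 8 were Mad2l1, Cenph, Cenpn, Knstrn, Kif14, Kif15, Prc1 and Racgap1. At an unadjusted p under 0.05, 42 were higher and 0 lower, while 9045 of all 15845 genes passed in either direction. The median change of the 44 genes was 2.22 log2 units, against 4.08 in the first comparison and -0.14 over all genes here. All 44 passed the filter, but in the adjacent sample of mouse GB370 only 37 of them reached 1 TPM. The others passed only with the tumors, Kif14 (0.893 TPM in that sample), which is among the 8 called, included. A difference was thus built into their passing and into these counts.

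Log2 fold changes of the 8 ran from 1.52 (Prc1) to 2.36 (Cenph), and those of the 36 others from 0.43 (Pttg1) to 2.75 (Aurkb), so the calls did not single out the largest changes. Of the pathway lists in the same comparison, 7 further kinetochore genes were called higher and 1 lower, 5 further spindle genes higher and 1 lower, 3 of the MuvB, DREAM and FOXM1 list higher and 0 of the anaphase promoting complex list in either direction.

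The few calls went with a wide spread in the adjacent samples. Cenph had 16.5, 23.2 and 24.6 TPM in tumors and 5.002, 4.401 and 1.47 in adjacent cerebellum of the same mice, and it had the lowest adjusted p of the set (log2 fold change 2.36 ± 0.37 SE, limma adjusted p = 0.00241). Aurkb had the largest log2 fold change, 2.75, but adjacent values of 28.7, 18.5 and 1.43 TPM left it with an SE of 0.86 and an adjusted p of 0.0344. Mki67 behaved likewise, with 58.4, 33.3 and 2.72 TPM in adjacent cerebellum (2.50 ± 0.96 SE, adjusted p = 0.0658). Without the adjacent sample of mouse GB370, 30 of the 44 were called, and without that of mouse GB344, 21. Of all genes, 3.84% and 5.76% were called higher in these fits. Leaving out the tumor of mouse GB359 or of mouse GB370 left 0, and that of mouse GB344, or the adjacent sample of mouse GB359, left only Cenph. With the mouse as a replicate block (a paired fit) 4 were called: Cenph, Kif14, Kif15 and Kif18a. At an adjusted p under 0.05 with no fold minimum, 40 of the 44 were higher, beside 18.1% of all genes. Scaling moved the calls of all genes too, from 755 higher and 2852 lower to 1296 and 2476 under median-of-ratios scaling and 1648 and 2136 under quantile normalization, with 12 and 16 of the 44 called higher.

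Mouse by mouse, the gap between tumor and adjacent cerebellum differed greatly. The median difference in log2(TPM + 1) over the 44 genes was 1.06 in mouse GB344, 1.82 in mouse GB359 and 3.74 in mouse GB370, and 44, 44 and 43 genes were higher in the tumor. In TPM, the adjacent sample of mouse GB344 held a median of 45.2% of the tumor level, with quartiles of 41.6% and 49.8%. In mouse GB359 the median was 26.2% (24.3% and 29.4%), and in mouse GB370 it was 5.24% (3.76% and 10.4%). Most of the 44 genes thus kept a nearly common fraction within mice GB344 and GB359 and a looser one within mouse GB370. In mouse GB370 the fractions of the 40 genes called in tumors ran from 1.70% for Aurkb to 20.5% for Incenp. In that mouse Bub3, Mad1l1, Anln and Pttg1 lay outside this range, at 77.9%, 53.7%, 44.5% and 159%. In mouse GB359, however, Pttg1 lay inside the quartiles, at 25.7%.

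The progenitor marker Atoh1 followed the same order, with 59.4, 50.5 and 4.997 TPM in adjacent cerebellum of mice GB344, GB359 and GB370, which is 49.98%, 20.7% and 1.57% of the tumor of each mouse. Foxm1 stood at 58.4%, 23.0% and 2.92%. In TPM, the progenitor list as a whole did not keep the order of Atoh1. Its sum was 495, 514 and 206 TPM in adjacent cerebellum of mice GB344, GB359 and GB370, so mouse GB359 was highest. In the tumors of these mice the list summed to 704, 1486 and 1575 TPM. Summed markers of mature granule neurons were lower in the adjacent sample of mouse GB344 (2168 TPM) than in those of mice GB359 (2996) and GB370 (2849). The part of progenitor or tumor cells in these values was not tested.

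**Figure D3:**
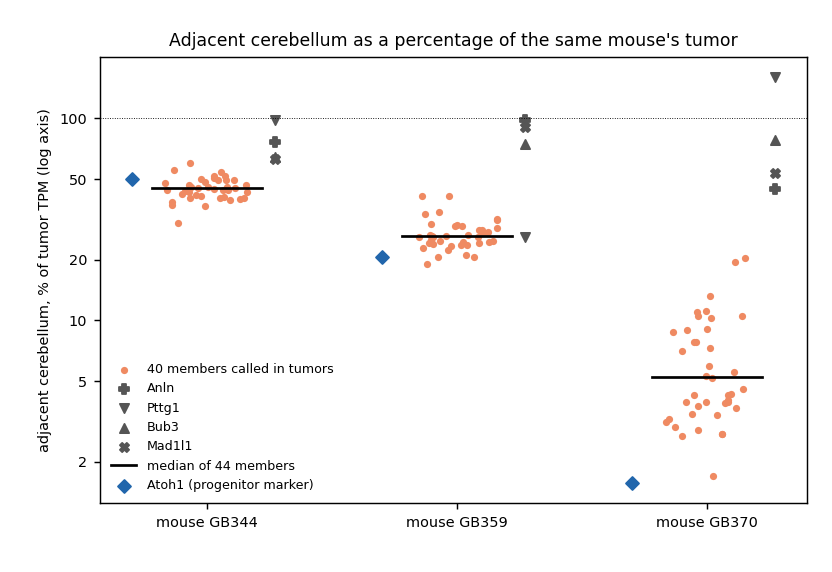
Adjacent cerebellum as a percentage of the TPM in the tumor of the same mouse, on a log axis, for the 44 genes (points), with their median (line) and Atoh1 (diamond). The genes gather near 45.2% in mouse GB344, 26.2% in mouse GB359 and 5.24% in mouse GB370, and Bub3, Mad1l1, Anln and Pttg1 lie mostly above the rest.

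The third comparison set the 3 adjacent samples against the 6 controls. It shares its controls with the first comparison and its adjacent samples with the second. With all samples, limma called 0 of the 44 genes higher and 0 lower, when 0.224% of the 16091 genes tested were called higher and 0.0124% lower. At an unadjusted p under 0.05, 40 of the 44 were higher and 0 lower, while 5551 of all 16091 genes passed in either direction. At an adjusted p under 0.05 with no fold minimum, 33 of the 44 were higher, beside 10.1% of all genes. All of the 44 but Anln (-0.31 ± 0.24 SE) had a positive log2 fold change, with a median of 1.81 beside 0.07 over all genes. Of the 44, 18 did not pass the filter on the controls alone but only with the adjacent samples counted, Mki67 among them. A difference was thus built into their passing and into these counts. The median was 2.11 in those 18 and 1.44 in the 26 that reached 1 TPM in at least 3 controls. The mean of the adjacent samples lay between the control and tumor means in 43 of 44 genes, as it did in 66.5% of all genes tested in the first comparison.

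The 10 largest changes were those of Mki67 (3.56), Aurkb (2.86), Cenpa (2.75), Spc25, Kif2c, Kif20a, Kif23, Cdca8, Tpx2 and Cdc20 (2.32). Cdc20 had 67.8, 42.2 and 13.9 TPM in adjacent cerebellum, all above the highest control of 10.1, and the lowest adjusted p of the set (0.013, limma). The adjacent samples also lay above every control for Cenph, Knstrn, Kif20a, Birc5 and Prc1, 6 genes in all (13.6% of 44, against 11.7% of all genes tested). Mki67 overlapped, since adjacent mouse GB370 had 2.72 TPM and control mouse GB512 had 5.63. Without adjacent mouse GB370, the fit called 39 of the 44 higher, the exceptions being Bub1b, Bub3, Mad1l1, Anln and Pttg1, and Mki67 reached a log2 fold change of 4.76 (adjusted p = 0.00096). Over all genes tested, 3.51% were called higher in that fit, and the median log2 fold change of the 44 moved from 1.81 to 2.56. Mouse GB344 was the highest adjacent sample in 38 of the 44 genes, against 40.2% of all genes tested.

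The fourth comparison set the 2 control genotypes against each other, Brca2-mut;Trp53-WT minus Brca2-WT;Trp53-mut. Only 26 of the 44 genes reached 1 TPM in at least 3 of these 6 samples. Limma called 0 of the 26 higher and 0 lower, when 0.0128% of the 15575 genes tested were called higher and 0.0449% lower. At an unadjusted p under 0.05 there was 1, Anln, with 19.4, 18.0 and 18.8 TPM against 20.5, 22.1 and 26.1 (log2 fold change -0.27 ± 0.10 SE, adjusted p = 0.213). At that unadjusted threshold 3123 of all 15575 genes passed in either direction. Anln and Bub3 were lower in every Brca2-mut;Trp53-WT sample, a pattern of 20.3% of all genes tested. The median log2 fold change of the 26 genes was 0.04, and the intervals were wide.

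The 5 largest differences between the control genotypes were not called. Pttg1 differed by -1.17 (95% interval -3.10 to 0.75), which moved to -0.10 without mouse GB361, whose level was 5.28 TPM. Bub1b differed by -1.11 (-2.33 to 0.11, adjusted p = 0.29), and without mouse GB512 by -1.74 (adjusted p = 0.0584). Nuf2 differed by 0.55 (-0.15 to 1.26), Cdc20 by 0.45 (-0.03 to 0.93) and Tpx2 by 0.45 (-0.54 to 1.43), and Tpx2 turned to -0.10 without mouse GB512. The intervals of Pttg1, Bub1b, Nuf2 and Tpx2 reach beyond 1 log2 unit. Outside these 5 genes, and named after their values were seen, so do those of Cenpa (-0.97 to 1.81), Kif23 (-1.04 to 1.35) and Cdca8 (-0.56 to 1.30).

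Control mouse GB512, a Brca2-mut;Trp53-WT mouse, had the highest level of the 6 controls in 39 of the 44 genes, against 13.3% of all genes tested. All 44 genes reached 1 TPM there, against 23 to 26 in each of the other 5 controls. The ratio of its level to the mean of the other 5 had a median of 2.52 over the 44 genes, and the highest were those of Mki67 (21.2), Cenpf (14.97), Kif2c (11.5) and Spc25 (11.4). These are genes nearly silent in the other controls, and the ratio was near 1 for Bub3 (0.98), Mad1l1 (1.05) and Anln (0.89). Mouse GB512 did not stand out in progenitor markers, at 131 TPM in a control range of 119 to 172, and its Atoh1 level was 0.0689 TPM, in a control range of 0 to 0.212. Its microglial markers summed to 133 TPM, the highest of a control range of 97.8 to 133, with mouse GB361 close at 129. Its oligodendrocyte markers summed to 3151 TPM, the lowest of the controls. Which cells carried the mitotic transcripts was not tested. Without mouse GB512 the 40 calls in tumors remained at 40, and the median log2 fold change of the 44 genes moved from 4.08 to 4.25.

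**Figure D4:**
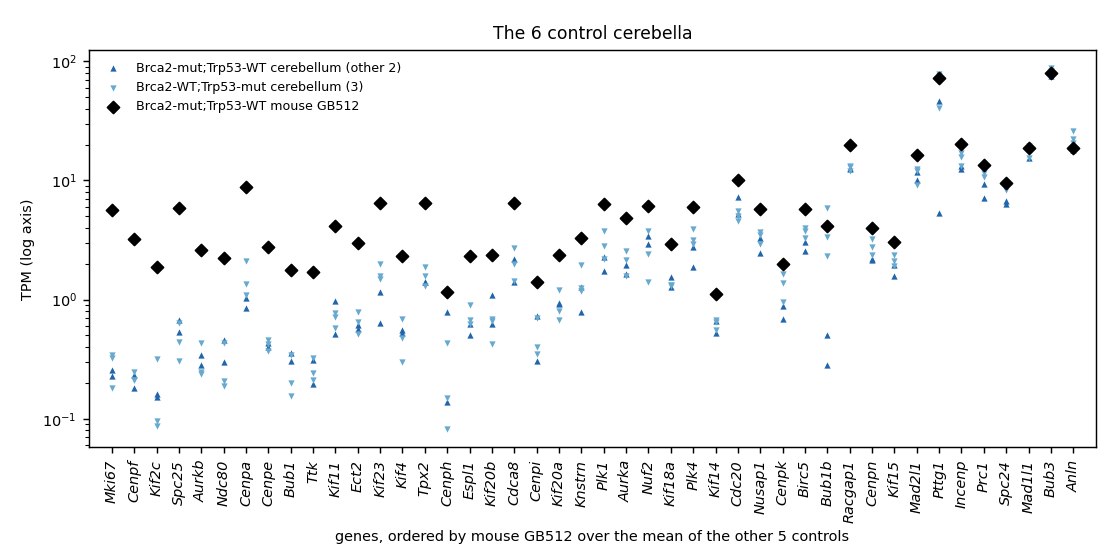
TPM of the 44 genes in the 6 control cerebella on a log axis, with genes ordered by the ratio of mouse GB512 to the mean of the other 5. Mouse GB512 (black diamonds) is highest in 39 genes, by 21.2 times for Mki67 at the left and not at all for Bub3 and Anln at the right.

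The order of the 44 genes by level differed between tumors and controls. In tumors the 5 highest means were those of Racgap1 (154 ± 19.3 TPM, SD, n = 3), Cdc20 (146 ± 11.3), Mad2l1 (138 ± 26.96), Birc5 (127 ± 21.5) and Cenpa (123 ± 11.7), and neighbours in this order lay within 1 SD of each other. The 5 lowest were Kif14 (8.89 ± 0.922), Cenpk (11.5 ± 2.31), Cenpi (12.9 ± 0.991), Kif20b (14.7 ± 4.54) and Kif18a (16.2 ± 1.72). In controls Bub3 (81.3 ± 3.83, n = 6), Pttg1 (52.8 ± 28.2), Anln (20.8 ± 2.95) and Mad1l1 (17.8 ± 1.88), the 4 genes not called in tumors, held the 4 highest means, followed by Incenp (15.3 ± 2.94) and Racgap1 (13.8 ± 3.04). Cenpa ranked 5 in tumors and 19 in controls, where its mean of 2.55 TPM was 1.29 without mouse GB512.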

How the data were processed

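RNA sequencing of 12 samples was analysed from a single deposited table of TPM for 24091 genes, which the authors made with Salmon 0.8.1 on mm10, per the submitters' processing notes, from poly(A) libraries of flash-frozen tissue. Column sums ran from 999793 to 999876. The authors tested counts with DESeq2; counts were not used here, so no counting error is given.

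Groups followed the labelled tissue and genotype. Values were analysed as log2(TPM + 1) in limma 3.58.1 (R 4.3.3) with a trended prior, keeping genes that reached 1 TPM in 3 or more of the samples compared, with Benjamini-Hochberg adjustment over all genes tested. Calls needed an adjusted p below 0.01 together with a change of 1 log2 unit or more, the thresholds of the study's methods. Fold changes on this scale understate those of low genes. Genes are named as follows: any of the 44 in the tumor comparisons, the 10 largest changes in the third and the 5 largest in the fourth, and the 2 largest called rises and falls of each pathway list; Cit, Lin37 and Nfyc were chosen after their values were seen. The 44 genes and the lists were chosen with earlier results of these data known. Markers of 10 cell types were summed, and Atoh1, the only marker also named singly, lies outside this naming rule.

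Tumors and adjacent samples came from the same mice, as the labels number them. Deviations from the group means correlated at 0.249, 0.176 and 0.152 within mice GB344, GB359 and GB370, and at -0.163 to 0.018 between different mice. Alternatives changed the pseudocount, filter, scaling, prior, threshold, controls and samples. The scripts were tested on simulated data. Promoters came from RefSeq (GRCm38.p6).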

Additional observations from a re-analysis of the deposited data

Results flagged for a closer look

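In 24 of the 44 genes, mouse GB512 stood apart from the other 5 control cerebella, with the highest level each time. The measure is the gap to the nearest other control divided by the range of all 6 controls, read against Dixon's critical value. Chance gives about 1 such group in 20, genes of 1 library are not independent, and 6.99% of all genes tested had a control apart, 1.99% with GB512 as the highest. The gap over range was 0.876 for Bub1, 0.913 for Ttk, 0.844 for Cenpa, 0.867 for Ndc80, 0.934 for Spc25, 0.963 for Cenpe, 0.978 for Cenpf, 0.87 for Kif2c. Further values of this gap were 0.806 for Kif4, 0.877 for Kif11, 0.747 for Kif14, 0.839 for Kif18a, 0.676 for Kif20a, 0.659 for Kif20b, 0.767 for Kif23, 0.692 for Aurka. The rest were 0.918 for Aurkb, 0.74 for Cdca8, 0.887 for Tpx2, 0.632 for Nusap1, 0.892 for Ect2, 0.852 for Racgap1, 0.784 for Espl1, 0.97 for Mki67. The sum over the 44 genes did not pass the critical value. The 3-sample groups were not examined in this way.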

How the results depend on the processing

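In tumors against controls, the 40 genes called higher stayed at 40 under every alternative, except 42 at an adjusted p under 0.05 with no fold minimum, and Anln and Pttg1 were called under none. In tumors against adjacent cerebellum, the 8 genes called higher became 1 with a pseudocount of 0.1, 1 with a pseudocount of 0.01, 1 with no filter on low values, 4 without the trend, 16 under quantile normalization, 35 with all 4 groups in 1 fit, 40 at an adjusted p under 0.05 with no fold minimum, and 4 with the mouse as a replicate block (paired fit). Leaving out 1 sample gave 0 to 30, beside 1.19% to 5.76% of all genes called higher. The replicate block could be used only in that comparison. In adjacent against control cerebella, 0 genes called became 33 at an adjusted p under 0.05 with no fold minimum, and 0 to 39 with 1 sample left out, the 39 without adjacent GB370. Without adjacent GB370, 3.51% of all genes were called higher. At the looser threshold, 31.8% of all genes were higher in tumors against controls, 18.1% in tumors against adjacent cerebellum and 10.1% in adjacent against control cerebella. Between control genotypes 0 were called under every alternative, and no gene of the 44 was called lower in any comparison. The log2 fold change of Pttg1 in tumors against adjacent cerebellum ranged from -0.026 (without tumor GB359) to 0.77 with 1 sample left out, and that of Tpx2 between control genotypes from -0.10 (without GB512) to 0.72. A minimum of 5 TPM left 22 genes tested in adjacent against control cerebella and 10 between control genotypes. The median over all genes in tumors against controls moved from -0.11 to -0.01 under median-of-ratios scaling and 0.06 under quantile normalization, and against adjacent cerebellum from -0.14 to 0.02 and 0.14. The causes were not tested. Depth is unknown from TPM, so levels near 0 in controls carry no counting error, and groups of 3 limit the precision.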
